A study of Mus musculus with 3 samples.

Results

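*Myc* and 5 amino acid transporter genes, *Slc7a5*, *Slc3a2*, *Slc1a5*, *Slc7a1* and *Slc38a2*, were followed across lymphocytes of MC38-Ova tumors. They were chosen by symbol, 6 of the 32285 genes in the tables, and all 6 were present in each of the 3 libraries. MC38-Ova is a mouse colon adenocarcinoma line that carries ovalbumin, and 250000 of its cells were injected under the skin of WT C57BL/6 Kaede mice, a photoconvertible strain. Tumors were exposed to violet light on day 13 and harvested on day 15, so that Kaede-green (KG+) cells had entered within the last 48 h and Kaede-red (KR+) cells had already been inside at conversion. There were 2 KG+ libraries, labelled as biological replicates, and 1 KR+ library, and every library came from tumors given an isotype control antibody. Ages, the number of mice per library and whether both colors came from the same mice are not given in the labels. The p-values below set a difference within libraries against its spread over the 3 libraries. That spread may be partly technical, and it mixes 2 KG+ libraries with 1 KR+ library.

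Myc is a transcription factor that drives growth, ribosome production and nutrient uptake when lymphocytes are activated, and its mRNA and protein turn over rapidly. Slc7a5 (LAT1) and Slc3a2 (the heavy chain of CD98) pair in the plasma membrane to import leucine and other large neutral amino acids in exchange for glutamine, and the imported leucine feeds mTORC1. Slc1a5 (ASCT2) exchanges glutamine and other neutral amino acids, Slc7a1 (CAT1) imports arginine and other cationic amino acids, and Slc38a2 (SNAT2) imports small neutral amino acids with sodium and is induced by amino acid shortage.

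Live CD45+ TER119- Kaede+ cells without CD11b+NK1.1- myeloid cells had been sorted, and droplet-based scRNA-seq counted unique molecular identifiers (UMIs), 1 per captured mRNA molecule. The libraries held 10498 to 12327 cells and 87193225 to 175848894 UMIs, and 31943 cells in all passed the filters, with median UMIs per cell of 6628 and 8513 in KG+ 1 and 2 and 12076 in KR+. NK cells (at least 1 UMI of *Ncr1* and at most 1 of *Cd3e*) numbered 8459, CD8 T cells (at least 2 of *Cd3e* and 1 each of *Cd8a* and *Cd8b1*) 9700, and Treg cells (at least 2 of *Cd3e* and 1 of *Foxp3*) 1802. The 467 cells that met both T cell gates were left out. Marker genes that no gate used followed these names: 8 NK cell markers summed to 8820 to 16579 counts per 1000000 UMIs (CPM) in NK cells and to 1024 to 1932 in CD8 T cells, 6 T cell markers to 352 to 502 CPM in NK cells and 4831 to 5389 in CD8 T cells, and 6 Treg markers to 6176 to 7273 CPM in Treg cells. Library pairs shared 20 to 36 cell barcodes.

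The genes lay at separate loci of GRCm38: *Myc* (ENSMUSG00000022346) at chr15:61985391-61990374 on the plus strand, *Slc7a5* (ENSMUSG00000040010) at chr8:121881150-121907694 on the minus strand, *Slc3a2* (ENSMUSG00000010095) at chr19:8706882-8723369 on the minus strand, *Slc1a5* (ENSMUSG00000001918) at chr7:16781340-16798274 on the plus strand, *Slc7a1* (ENSMUSG00000041313) at chr5:148327410-148399904 on the minus strand and *Slc38a2* (ENSMUSG00000022462) at chr15:96687392-96699730 on the minus strand. None overlapped another annotated gene on its own strand, and *Slc7a5* overlapped Gm20388 on the opposite strand. RefSeq promoter windows on GRCm38.p6, 250 bases before to 50 after a start, were at hand for 3 of the 6 genes, *Slc7a1*, *Slc38a2* and *Slc3a2*, and those of *Slc38a2* and *Slc7a1* are shown because these transporters differed in opposite directions between cycling and other T cells. Capitals mark the GC box CCGCCC, searched on both strands. The *Slc38a2* stretch is chr15:96699731-96699978 and that of *Slc7a1* is chr5:148399905-148400154, both read from the minus strand.
Slc38a2: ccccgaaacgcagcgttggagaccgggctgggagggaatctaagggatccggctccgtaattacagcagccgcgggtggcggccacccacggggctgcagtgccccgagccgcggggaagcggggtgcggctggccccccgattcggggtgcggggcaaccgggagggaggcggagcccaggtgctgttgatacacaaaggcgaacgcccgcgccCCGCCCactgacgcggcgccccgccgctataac
Slc7a1: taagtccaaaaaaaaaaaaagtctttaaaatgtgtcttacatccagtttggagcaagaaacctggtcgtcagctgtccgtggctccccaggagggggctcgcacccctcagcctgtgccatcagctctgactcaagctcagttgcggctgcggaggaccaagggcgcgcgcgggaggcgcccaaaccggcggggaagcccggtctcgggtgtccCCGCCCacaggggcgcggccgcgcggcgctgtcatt
Both stretches held 1 GC box, a motif in 35.7% of the 32851 RefSeq windows, and their GC content was 72.2% in *Slc38a2* and 62.4% in *Slc7a1* against a median of 52.4%. The E-box CACGTG bound by Myc (in 7.15% of windows) and the letters TGATGNAA of the amino acid response element (in 3.97%) matched in none of the 4 windows of these 3 genes on either strand, and CCAAT (37.4%) matched once, in the *Slc7a1* window. These matches describe the letters of short windows.

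The first question was how the 6 genes were distributed among NK, CD8 T and Treg cells. UMIs were summed per library and population, and levels are CPM of those sums, always given in the order KG+ 1, KG+ 2 and KR+. *Myc* had its highest mean in NK cells and *Slc7a5* in CD8 T cells, and *Slc1a5* was nearly level in all 3 cell types. Differences between populations were tested with edgeR, with the library as a block, at a Benjamini-Hochberg adjusted p under 0.05. Where groups are said not to overlap, this only describes the printed values. The share of all genes without overlap was not counted.

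**Figure D1:**
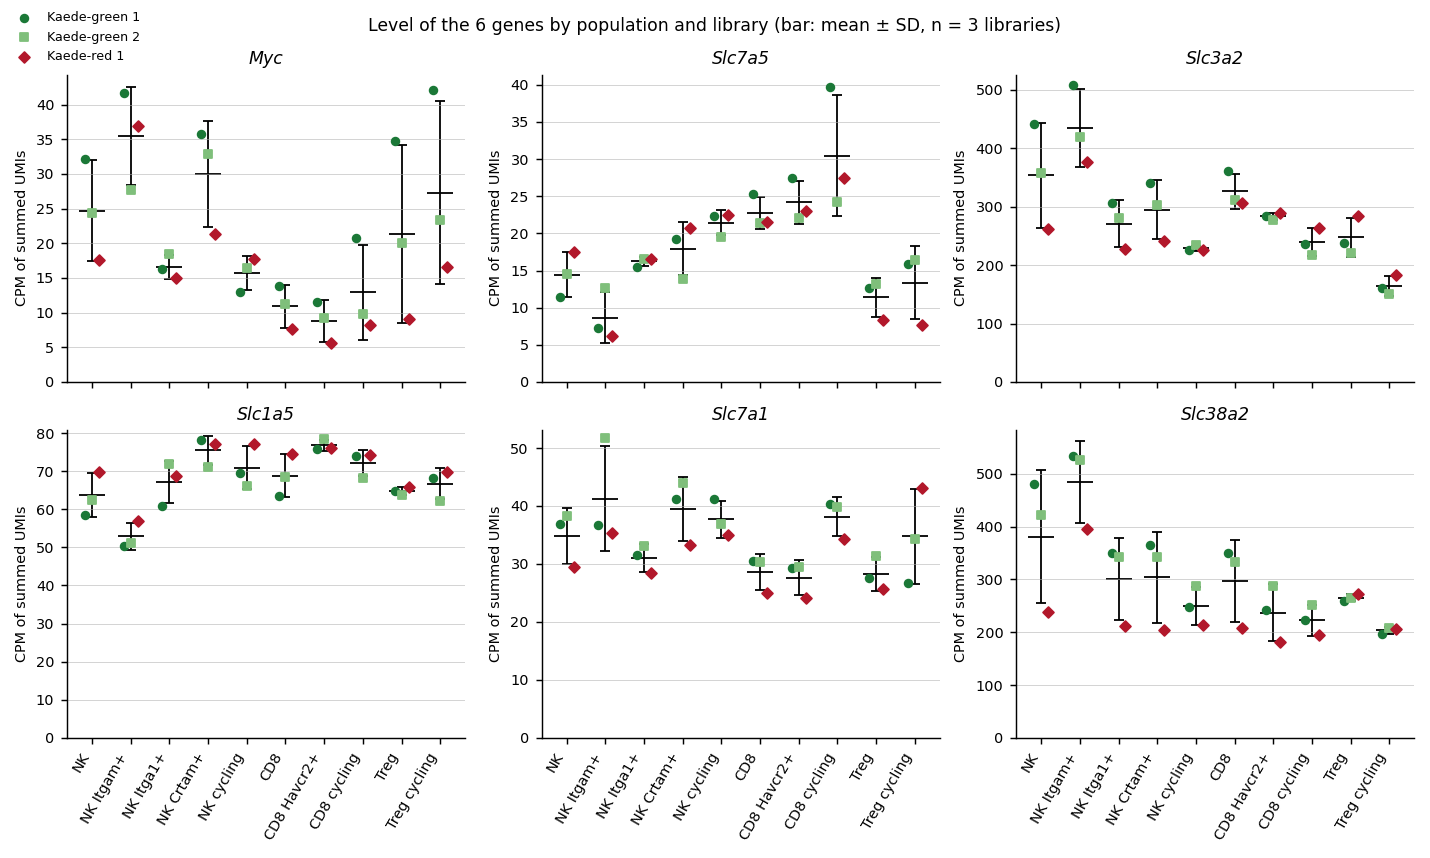
Levels of the 6 genes in 10 overlapping populations, as CPM of UMIs summed per library (y axis). Points are the 3 libraries, horizontal bars the mean and whiskers the SD (n = 3). *Myc* has its highest mean in Itgam+ NK cells, and *Slc3a2* and *Slc38a2* are lower in cycling than in whole populations.

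*Myc* was at 32.2, 24.3 and 17.6 CPM in NK cells (mean 24.7 ± 7.3, SD, n = 3), at 34.8, 20.03 and 9.1 CPM in Treg cells (21.3 ± 12.9) and at 13.8, 11.3 and 7.7 CPM in CD8 T cells (10.9 ± 3.1). All 3 NK values lay above all 3 CD8 T cell values, whereas the Treg cells spread across both. NK cells exceeded CD8 T cells by 1.21 ± 0.08 on the log2 scale (± SE throughout, adjusted p = 0.000609), and this difference was called in all 15 alternative analyses, at 1.17 to 1.95. Treg cells exceeded CD8 T cells by 0.71 ± 0.20 (adjusted p = 0.0451). This difference was called in only 8 of 15 alternatives, which ran from 0.29 to 1.01. Among the settings that lost it were those without KG+ 1 (0.46, adjusted p = 0.243), without KG+ 2 (0.69, adjusted p = 0.102) and without cycling cells (0.53, adjusted p = 0.141). Treg and NK cells did not differ beyond their spread (-0.52 ± 0.25, adjusted p = 0.182).

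*Slc7a5*, which encodes LAT1, ran the other way. Its level was 25.3, 21.4 and 21.5 CPM in CD8 T cells (22.7 ± 2.2), 11.4, 14.6 and 17.4 CPM in NK cells (14.5 ± 3.0) and 12.6, 13.2 and 8.3 CPM in Treg cells (11.4 ± 2.7). No CD8 T cell value overlapped either of the other cell types. Treg cells were lower than CD8 T cells by -1.12 ± 0.16 on the log2 scale (adjusted p = 0.00403), in all 15 alternatives (-1.41 to -0.93), and the NK to CD8 T cell difference of -0.61 ± 0.19 missed the threshold (adjusted p = 0.0640) but passed it in cells matched for total UMIs (-0.49, adjusted p = 0.0223). Between Treg and NK cells the difference was -0.53 ± 0.29 (adjusted p = 0.241).

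Its partner *Slc3a2* had levels of 442, 357 and 262 CPM in NK cells (354 ± 89.9), 361, 311 and 306 CPM in CD8 T cells (326 ± 30.2) and 237, 220 and 285 CPM in Treg cells (247 ± 33.7). Every Treg value was below every CD8 T cell value, and the NK cells overlapped both. The Treg to CD8 T cell difference was -0.53 ± 0.12 (adjusted p = 0.0232), lost without KG+ 1 (-0.41, adjusted p = 0.157) or KG+ 2 (-0.49, adjusted p = 0.104) and called in matched cells (-0.61, adjusted p = 0.000186). NK and CD8 T cells differed by 0.12 ± 0.10 (adjusted p = 0.392).

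The glutamine carrier *Slc1a5* was at 58.5, 62.5 and 69.9 CPM in NK cells, 63.4, 68.6 and 74.5 CPM in CD8 T cells and 64.9, 63.8 and 66.0 CPM in Treg cells. The cell types overlapped, and no pair passed the test (log2 differences of -0.21 to -0.08, adjusted p from 0.156 to 0.483). *Slc7a1*, the arginine importer, was at 36.8, 38.3 and 29.4 CPM in NK cells, 30.5, 30.4 and 24.96 CPM in CD8 T cells and 27.7, 31.4 and 25.6 CPM in Treg cells. It was higher in NK than in CD8 T cells within each library (0.32 ± 0.07, adjusted p = 0.0233) and lower in Treg than in NK cells (-0.48 ± 0.13, adjusted p = 0.0460). *Slc38a2* was at 480.1, 423 and 239 CPM in NK cells (381 ± 126), 349.6, 334 and 209 CPM in CD8 T cells (298 ± 77.2) and 260.1, 266 and 272 CPM in Treg cells (266 ± 5.9). Its KR+ value was the lowest in NK and CD8 T cells, and the 3 Treg values were nearly equal. NK cells exceeded CD8 T cells by 0.37 ± 0.07 (adjusted p = 0.0151). The last 2 NK to CD8 T cell calls were lost without KG+ 1 (*Slc7a1* adjusted p = 0.0690, *Slc38a2* adjusted p = 0.106) or KG+ 2 (0.190 and 0.153), as was the *Slc7a1* call between Treg and NK cells (0.263 and 0.301).

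In total, 3 of 6 genes were called between NK and CD8 T cells, where 29.1% of all genes tested were called, 3 of 6 between Treg and CD8 T cells (23.9% of all genes) and 1 of 6 between Treg and NK cells (24%). The 3 comparisons share populations. In matched cells, 4 of 6 were called between Treg and NK cells, *Slc3a2* (-0.62), *Slc38a2* (-0.62), *Slc7a5* (-0.56) and *Slc7a1* (-0.50), all lower in Treg cells. The matched fit also called more of all genes than the 2865 called in all cells, as counted in the closing sections. The rise was therefore not confined to these 6 genes, and the share of all genes called in matched cells is not given here.

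Among the other amino acid transporters, *Slc16a10*, an aromatic amino acid transporter (TAT1), was higher in NK than in CD8 T cells (1.89 ± 0.10) and lower in Treg than in CD8 T cells (-1.13 ± 0.19), and *Slc43a2* had the reverse order (-0.79 ± 0.11 and 1.02 ± 0.18). Of the other amino acid transporters tested, 4 of 13 were higher and 1 lower in NK than in CD8 T cells, 2 of 12 higher and 3 lower in Treg than in CD8 T cells, and 1 of 12 higher and 2 lower in Treg than in NK cells. Treg cells exceeded CD8 T cells in *Odc1*, ornithine decarboxylase of polyamine synthesis and a Myc target (2.29 ± 0.11), in *Got1*, the cytosolic aspartate aminotransferase (2.54 ± 0.13), and in *Ddit4* (2.21 ± 0.10). Of 30 Myc target genes 4 were higher and 2 lower in NK than in CD8 T cells, and in matched cells 18 were higher and 1 lower. Between Treg and CD8 T cells 2 were higher and 3 lower, and in matched cells 5 were higher and 10 lower. How many of all genes were called in matched cells is not given for either comparison, so these matched counts have no background beside them.

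Total UMIs per cell moved with several of the genes, and the gates used below select on detected UMIs, which favors cells with more of them. Cells were therefore also split by total UMIs. In NK cells *Slc3a2* went from 480.3 to 627 CPM over the 3 libraries in cells under 5000 UMIs to 224 to 248 CPM in cells of 20000 to 40000 UMIs. *Slc38a2* went from 581 to 641 CPM to 199.7 to 259.7 CPM over the same range, while its UMIs per cell went from 2.35 to 2.71 to 5.61 to 7.17. Both genes were lower at every step in all 3 libraries in NK and in CD8 T cells. In CD8 T cells *Slc3a2* went from 576 to 784 CPM to 234 to 257 CPM and *Slc38a2* from 459 to 601 CPM to 179 to 259 CPM. Treg cells had this slope as well. *Slc38a2* was lower there at every step in all 3 libraries, from 432 to 471 CPM to 183 to 220 CPM. *Slc3a2* was lower at every step in 2 of 3 libraries, from 397 to 451.5 CPM to 149 to 218 CPM.

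*Slc7a5* and *Slc1a5* had the opposite slope in NK cells, from 4.5 to 12.1 CPM to 18.7 to 20.1 CPM and from 37.7 to 47.4 CPM to 71.3 to 71.8 CPM. In CD8 T cells *Slc1a5* was flat, at 68.4 to 71.0 CPM and 68.7 to 74.2 CPM, and *Slc7a1* was higher in larger cells, from 11.8 to 28.7 CPM to 29.0 to 37.4 CPM, as was *Slc7a5*, from 18.4 to 23.1 CPM to 21.9 to 31.0 CPM. *Myc* had no common slope: it was lower in the larger NK cells (22.6 to 36.6 CPM to 14.6 to 26.3 CPM) and higher in the larger CD8 T cells (5.2 to 12 CPM to 7.8 to 15.3 CPM). Only 1 library had a lower *Myc* level at every step in NK cells. In Treg cells *Myc* was higher in larger cells, from 0.0 to 11.7 CPM to 15.6 to 33.6 CPM. The comparisons between 2 populations were repeated in cells matched one to one for total UMIs within each library, and those between colors within bands of total UMIs.

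**Figure D2:**
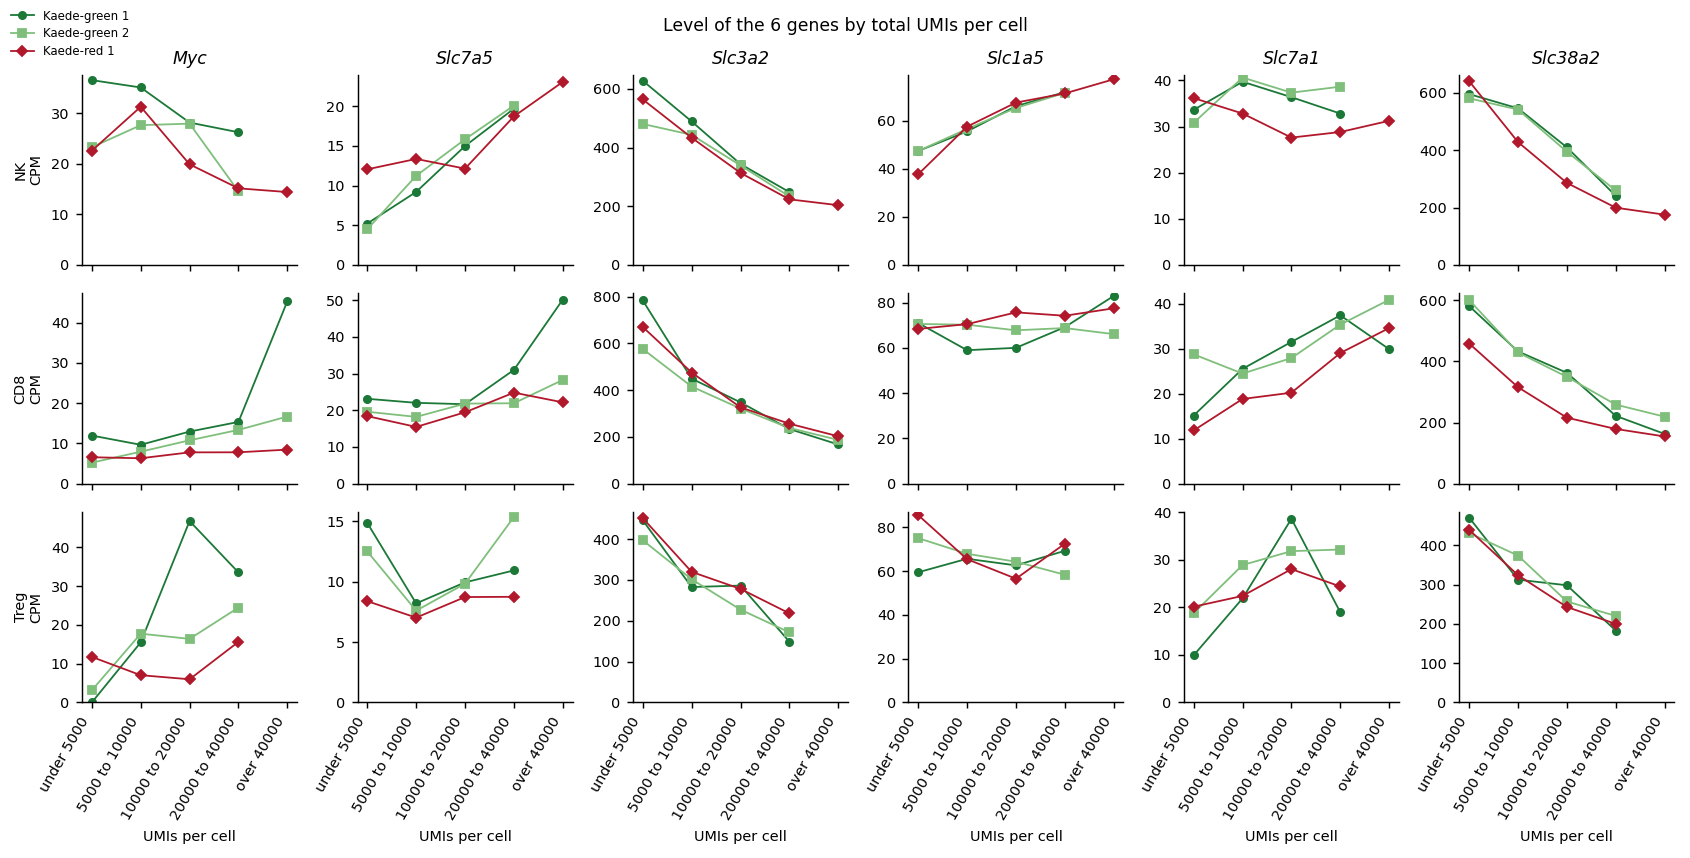
CPM of the 6 genes (y axes) in NK, CD8 T and Treg cells split by total UMIs per cell (x axis), with a line per library and bands of fewer than 20 cells left out. *Slc3a2* and *Slc38a2* are lower at every step in all 3 libraries in NK and CD8 T cells, and *Slc7a5* and *Slc1a5* are higher in larger NK cells. *Slc38a2* is lower at every step in all 3 libraries in Treg cells too.

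Itga1+ NK cells were set against Itgam+ NK cells, 2 states that the study set apart by integrins. *Itga1* encodes CD49a and *Itgam* encodes CD11b, and each gate required at least 1 UMI of the one and none of the other. There were 2333 Itga1+ and 808 Itgam+ NK cells, the latter including 76 in the KR+ library. Itga1+ cells had less *Myc*, *Slc3a2* and *Slc38a2* and more *Slc7a5* and *Slc1a5*, so *Slc7a5* and its partner *Slc3a2* differed in opposite directions. In all, 5 of 6 genes were called, against 35.7% of all genes tested.

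*Myc* was at 16.3, 18.4 and 15.0 CPM in Itga1+ and at 41.6, 27.7 and 36.9 CPM in Itgam+ NK cells, with no overlap (-0.96 ± 0.18 on the log2 scale, adjusted p = 0.00135). *Slc3a2* was at 306, 281 and 227 CPM against 508, 419 and 377 CPM (-0.60 ± 0.08, adjusted p = 0.000138). *Slc38a2* was at 350.3, 342 and 212 CPM against 534, 527 and 395 CPM (-0.63 ± 0.09, adjusted p = 0.000163). These 3 genes were lower in Itga1+ cells of every library, and none of their group values overlapped. *Slc7a5* was at 15.5, 16.6 and 16.6 CPM against 7.3, 12.6 and 6.2 CPM (0.88 ± 0.25, adjusted p = 0.0145). Its Itgam+ values rest on 19, 30 and 4 UMIs. *Slc1a5* was at 60.9, 71.8 and 68.7 CPM against 50.4, 51.2 and 56.9 CPM (0.43 ± 0.11, adjusted p = 0.00889). *Slc7a1*, at 31.6, 33.1 and 28.4 CPM against 36.7, 51.7 and 35.4 CPM, missed the threshold (-0.35 ± 0.13, adjusted p = 0.0502).

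Itga1+ cells had more UMIs, with medians of 9493, 12075 and 24478 against 5345, 6717 and 6701. In 206, 235 and 72 matched cells per population no member passed edgeR's test (1 had an unadjusted p under 0.05), while 444 genes did: *Myc* differed most (-0.68, adjusted p = 0.0574), and *Slc3a2* (-0.05, adjusted p = 0.814) and *Slc38a2* (-0.13, adjusted p = 0.311) came close to 0. Among cells of 5000 to 10000 UMIs *Myc* passed (-0.80, adjusted p = 0.0402). Itga1+ cells of that band still had more UMIs, with medians of 6927, 7516.5 and 7926 against 6158.5, 6776.5 and 6260. The *Slc7a5* call was lost without KG+ 1 (0.74, adjusted p = 0.0902) and the *Slc1a5* call without KG+ 2 (0.35, adjusted p = 0.167).

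Genes around Myc differed as well. Of 30 Myc target genes tested 26 were higher and 1 lower in Itga1+ cells, with a median log2 difference of 0.63 against -0.02 over all genes, although *Myc* itself was lower. Among them were *Srm*, spermidine synthase (1.82 ± 0.19), *Pa2g4*, a growth-regulated ribosome-associated factor (1.17 ± 0.10), *Ldha*, lactate dehydrogenase (1.14 ± 0.08), and the nucleolar *Npm1* (0.80 ± 0.08). In matched cells 3 were higher, among them *Ldha* (0.37) and *Npm1* (0.23), and 1 was lower. Of 10 Myc partners and antagonists 3 were lower, all antagonists that compete with Myc for Max: *Mxd1* (-1.27 ± 0.13), *Mxd4* (-1.18 ± 0.10) and *Mxi1* (-0.75 ± 0.19). *Mxd1* (-0.42) and *Mxd4* (-0.43) were also lower in matched cells.

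Of 13 genes of the ATF4 amino acid response 7 were higher and 3 lower in Itga1+ cells, with the serine synthesis enzymes *Psat1* (1.07 ± 0.17) and *Phgdh* (0.89 ± 0.14) and the mitochondrial *Shmt2* (0.98 ± 0.17) among the higher, and 1, *Ddit4*, an mTORC1 inhibitor, in matched cells (0.52). *Glul*, which makes glutamine, was lower (-0.91 ± 0.13), one of 2 lower and 2 higher among 10 genes of glutamine use. *Slc6a6*, the taurine transporter (0.42 ± 0.14), was the only one of 10 other amino acid transporters called. Of 14 immediate early genes that tissue dissociation induces, 13 were lower in Itga1+ cells (median -1.09), 8 of them in matched cells, and their summed level was 1839 to 2608 CPM in Itga1+ and 4311 to 4678 CPM in Itgam+ cells. All 14 were detected in both populations, and their part in the *Myc* difference was not tested. Macrophage and monocyte markers, all 7 detected, summed to 3.4 to 409 CPM in Itgam+ cells, highest in KG+ 2, and to 1.1 to 33.6 CPM in Itga1+ cells, and their part was not tested.

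NK cells with at least 1 UMI of *Crtam*, an adhesion receptor gene of activated lymphocytes, were compared with NK cells without one. *Myc* and *Slc1a5* were higher and *Slc3a2* and *Slc38a2* lower in the 1244 Crtam+ cells, 4 of 6 genes, against 11.4% of all genes tested. *Myc* was at 35.7, 32.9 and 21.4 CPM in Crtam+ and 31.7, 22.5 and 16.0 CPM in Crtam- cells, higher in each library though the groups overlapped (0.42 ± 0.10, adjusted p = 0.0241). *Slc1a5*, at 78.1, 71.1 and 77.0 CPM against 55.6, 60.6 and 66.9 CPM, did not overlap (0.32 ± 0.08, adjusted p = 0.0320). *Slc38a2* (-0.34 ± 0.06, adjusted p = 0.0107) and *Slc3a2* (-0.26 ± 0.07, adjusted p = 0.0334) were lower in each library, and *Slc7a1* (0.26 ± 0.08, adjusted p = 0.0580) and *Slc7a5* (0.37 ± 0.14, adjusted p = 0.125) did not pass.

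In matched cells *Myc* was the only member called, and its difference was larger (0.91, adjusted p = 0.00161). After cycling cells were also left out it was 0.44 (adjusted p = 0.294). Without KG+ 2 none of the 6 passed in edgeR, though 5 had an unadjusted p under 0.05 (*Myc* 0.33, adjusted p = 0.249), without KG+ 1 only *Myc* did, and without the library block none did, adjusted or not (*Myc* 0.38, adjusted p = 0.741). Of 30 Myc target genes 23 were higher in Crtam+ cells and none lower (median 0.45 against -0.01 over all genes), including the chaperonin *Hspd1* (0.57 ± 0.08), the transferrin receptor *Tfrc* (0.67 ± 0.11) and nucleolin, *Ncl* (0.49 ± 0.08), and 3 were higher in matched cells. None of 12 other amino acid transporters and none of 17 genes of mTORC1 and lysosomal sensing passed this test. Of 14 immediate early genes 4 were lower in Crtam+ cells and none in matched cells, and their sum was lower in each library (2031 to 2887 against 2185 to 3925 CPM). Their part in the differences was not tested.

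The *Crtam* difference in *Myc* was set out within both integrin states. Among Itga1+ cells *Myc* was at 23.0, 35.2 and 20.2 CPM with *Crtam* and 14.4, 13.4 and 12.7 CPM without. Among Itgam+ cells it was at 24.5, 18.2 and 27.7 CPM with *Crtam* and 43.1, 28.9 and 38.1 CPM without, and the Crtam+ values of this state rest on 23, 26 and 7 cells. The direction was thus opposite in each library, but in Itgam+ cells it rests on those few Crtam+ cells. The difference between these differences was 1.64 ± 0.46 on the log2 scale, with an unadjusted p of 0.00176 but an adjusted p of 0.967 over 9022 genes, of which 0.0111% were called, so 0 of 6 genes were called. By edgeR 448 of those genes had an unadjusted p under 0.05, and DESeq2 called none of the 6 either.

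**Figure D3:**
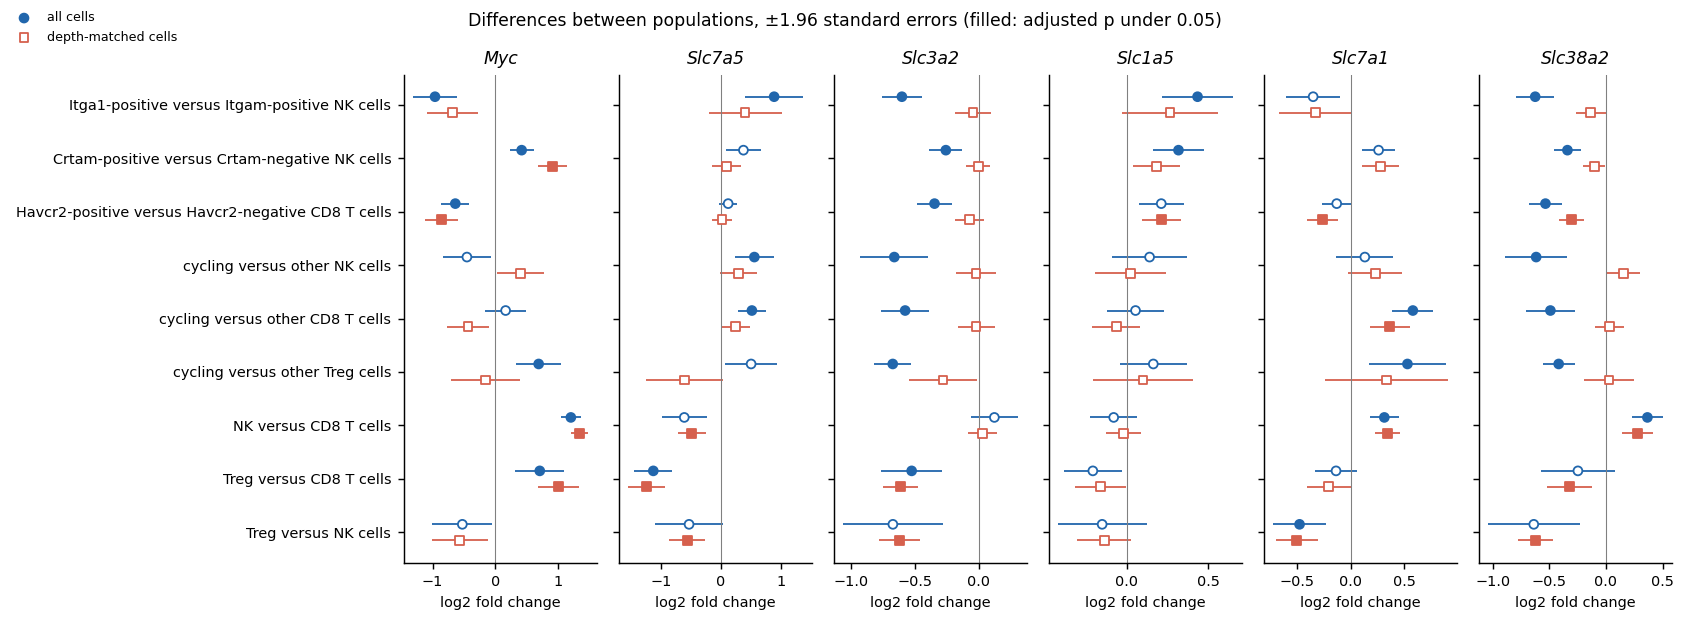
Log2 differences of the 6 genes (x axis) in the comparisons between populations, for all cells and for cells matched by total UMIs. Lines are a fixed multiple of the SE and can exclude 0 where the unadjusted p is over 0.05. Filled points have an adjusted p under 0.05. The *Slc38a2* differences of Itga1+ NK cells and of cycling cells are not called in matched cells (-0.13 to 0.15), and *Myc* in Havcr2+ CD8 T cells is (-0.86).

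CD8 T cells with at least 1 UMI of *Havcr2*, which encodes the inhibitory receptor TIM-3 of exhausted T cells, had less *Myc*, *Slc3a2* and *Slc38a2* than CD8 T cells without one. There were 3537 Havcr2+ cells, and 3 of 6 genes were called, against 27.6% of all genes tested. *Myc* was at 11.6, 9.2 and 5.6 CPM in Havcr2+ and 14.7, 12.7 and 10.4 CPM in Havcr2- cells (-0.64 ± 0.11, adjusted p = 0.00460). *Slc38a2* was at 242, 288 and 181 CPM against 391, 366 and 246 CPM (-0.54 ± 0.07, adjusted p = 0.00153). Both were lower in each library, although the groups overlapped across libraries. *Slc3a2*, at 283, 277 and 290.0 CPM against 391, 336 and 328 CPM, did not overlap (-0.35 ± 0.07, adjusted p = 0.00859).

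The *Myc* and *Slc38a2* differences also passed in matched cells, at -0.86 (adjusted p = 0.00166) and -0.30 (adjusted p = 0.00485), whereas that of *Slc3a2* did not (-0.07, adjusted p = 0.423). Each of the former was called in 14 of 15 alternatives, the exception being the fit without the library block (adjusted p = 0.211 and 0.189), which called 44 genes and none of these 6 (3 had an unadjusted p under 0.05). *Slc1a5* was at 75.9, 78.4 and 76.0 CPM against 58.6, 61.7 and 72.5 CPM, just short of the threshold (0.21 ± 0.07, adjusted p = 0.0521) and past it in matched cells (0.21, adjusted p = 0.0349). *Slc7a1* (-0.13 ± 0.07, adjusted p = 0.192) and *Slc7a5* (0.12 ± 0.08, adjusted p = 0.305) did not pass, and *Slc7a1* did in matched cells (-0.27, adjusted p = 0.0316).

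Of 30 Myc target genes 4 were higher and 3 lower in Havcr2+ cells, and in matched cells 2 were higher and 14 lower (median -0.21). *Tfrc* (0.85 ± 0.08) and *Ldha* (0.71 ± 0.07) were higher, and *Ccnd2*, cyclin D2 (-0.64 ± 0.07), and *Gnl3*, nucleostemin (-0.47 ± 0.09), were lower. Of 18 genes of mTORC1 and lysosomal sensing 5 were lower, among them *Rragd*, a Rag GTPase (-2.25 ± 0.34), *Castor1*, an arginine sensor (-1.19 ± 0.15), and *Sesn3*, a sestrin (-1.05 ± 0.08), and *Lamtor4*, of the Ragulator complex, was higher (0.50 ± 0.08). Asparagine synthetase, *Asns*, was higher (0.79 ± 0.13), one of 4 higher and 1 lower among 15 ATF4 response genes. Of 11 other amino acid transporters 1 was higher and 2 lower: the mitochondrial aspartate and glutamate carrier *Slc25a13* (0.48 ± 0.13), the glutamate carrier *Slc25a22* (-0.41 ± 0.10) and *Slc43a2* (LAT4, -0.59 ± 0.17). Immediate early genes summed to 1935 to 2546 CPM in Havcr2+ and 2379 to 2779 CPM in Havcr2- cells, and their part was not tested.

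Cycling cells, with at least 4 UMIs of *Mki67* plus *Top2a*, were compared with the other cells of the same type. Of NK cells, 1.07%, 4.11% and 14.1% were cycling in KG+ 1, KG+ 2 and KR+, of CD8 T cells 6.63%, 11.5% and 19.6%, and of Treg cells 16.5%, 17.3% and 9.79%. *Slc3a2* and *Slc38a2* were lower in cycling cells of all 3 types, and *Slc7a1* was higher in cycling CD8 T and Treg cells and *Slc7a5* in cycling NK and CD8 T cells. Of the 6 genes, 3 were called in NK cells (24.4% of all genes), 4 in CD8 T cells (40.3%) and 4 in Treg cells (42.7%). Cycling cells had about 26668 to 28385 median UMIs in CD8 T cells, against 8668 to 12317 in the others.

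In NK cells *Slc7a5* was at 22.4, 19.5 and 22.5 CPM in cycling and 10.9, 13.97 and 15.7 CPM in other cells, without overlap (0.55 ± 0.16, adjusted p = 0.0289). *Slc3a2* was at 226, 234 and 227 CPM against 451, 372 and 274 CPM (-0.66 ± 0.14, adjusted p = 0.00442). *Slc38a2* was at 249, 287 and 214 CPM against 490.4, 439.5 and 248 CPM (-0.62 ± 0.14, adjusted p = 0.00753). Cycling NK cells had nearly the same *Slc3a2* level in every library, and the other NK cells differed more among libraries. Median UMIs were 31542.5, 29752 and 34696 in cycling and 6091.5, 8013 and 15024 in other NK cells. The part of depth in this pattern was not tested. *Myc* was at 13.0, 16.5 and 17.7 CPM against 33.0, 25.3 and 17.5 CPM and did not pass (-0.45 ± 0.20, adjusted p = 0.119). KG+ 1 held 28 cycling NK cells, and without KG+ 2 no edgeR call was left, with 3 members at an unadjusted p under 0.05 (adjusted p of 0.0833 for *Slc7a5*, 0.0886 for *Slc3a2* and 0.124 for *Slc38a2*), while without KR+ *Myc* passed (-0.81, adjusted p = 0.00251).

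In CD8 T cells *Slc7a1* was at 40.3, 39.9 and 34.3 CPM in cycling and 28.5, 27.5 and 20.4 CPM in other cells (0.58 ± 0.10, adjusted p = 0.00111). *Slc7a5* was at 39.7, 24.2 and 27.4 CPM against 22.3, 20.5 and 18.7 CPM (0.51 ± 0.12, adjusted p = 0.00643). *Slc3a2* was at 236, 217 and 264 CPM against 386.5, 341 and 327 CPM (-0.58 ± 0.10, adjusted p = 0.000970). None of these 3 overlapped between the groups. *Slc38a2*, at 222, 252 and 194 CPM against 375.5, 359 and 216 CPM, was lower in each library (-0.49 ± 0.11, adjusted p = 0.00556). *Myc* was at 20.7, 9.9 and 8.1 CPM against 12.4, 11.7 and 7.4 CPM (0.17 ± 0.17, adjusted p = 0.464), and a single cell of KG+ 1 held 31 of the 94 *Myc* UMIs of its cycling cells.

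In Treg cells *Myc* was at 42.1, 23.3 and 16.5 CPM in cycling and 30.7, 18.3 and 6.8 CPM in other cells, higher in each library (0.69 ± 0.18, adjusted p = 0.00798). *Slc3a2* was at 160.5, 150.3 and 183 CPM against 279.7, 258 and 317 CPM (-0.67 ± 0.07, adjusted p = 8.95e-06). *Slc38a2* was at 196, 208 and 206 CPM against 295.5, 297 and 292 CPM (-0.42 ± 0.07, adjusted p = 0.000410). The last 2 genes did not overlap and were the clearest of all 6 in Treg cells. *Slc7a1* was at 26.8, 34.4 and 43.1 CPM against 28.2, 29.7 and 20.1 CPM, higher in 2 of 3 libraries (0.53 ± 0.18, adjusted p = 0.0334), and the call was lost without KR+ (0.20, adjusted p = 0.361).

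In cells matched for UMIs, *Slc7a1* in CD8 T cells was the only member called in these 3 comparisons (0.36, adjusted p = 0.0188; none had an unadjusted p under 0.05 in NK or Treg cells in edgeR), and among CD8 T cells of 10000 to 20000 UMIs it was not (0.19, adjusted p = 0.531). *Slc38a2* turned to 0.15 in NK cells, 0.03 in CD8 T cells and 0.03 in Treg cells. *Myc* turned to 0.41 ± 0.19 in NK cells, -0.43 ± 0.17 in CD8 T cells and -0.16 ± 0.28 in Treg cells, and *Slc7a5* in Treg cells to -0.61 ± 0.33. The matched sums held 27, 95 and 384 cycling NK cells and 37, 72 and 53 cycling Treg cells in KG+ 1, KG+ 2 and KR+. *Slc3a2* was at -0.02 in NK and CD8 T cells and at -0.28 in Treg cells. None of these values passed the threshold, while 1332, 2415 and 955 genes were called in NK, CD8 T and Treg cells. The difference of cycling differences between cell types passed the test for no member. Between NK and CD8 T cells 0.0% of genes were called by edgeR (767 of 12736 at an unadjusted p under 0.05, and 6 by DESeq2), and between Treg and CD8 T cells 0.254% (28 genes by edgeR and 201 by DESeq2). Of the 6 genes, *Slc7a1* between NK and CD8 T cells was the only one under an unadjusted 0.05 in edgeR (-0.44 ± 0.15, adjusted p = 0.778), and no member was called by DESeq2 in either contrast.

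*Mxd3*, a Myc antagonist expressed in dividing cells, was higher in cycling NK (5.38 ± 0.29), CD8 T (5.15 ± 0.17) and Treg cells (5.54 ± 0.35), and *Mxd1* and *Mxd4* were lower in all 3, for example by -1.01 ± 0.16 and -1.19 ± 0.09 in CD8 T cells. Of the 30 Myc target genes tested in NK and CD8 T cells 14 and 19 were higher and 1 was lower in each, *Ccnd2* (-0.99 ± 0.11 and -1.02 ± 0.08), and 24 of 29 were higher and 1 lower in Treg cells. In matched NK cells 3 were higher and 3 lower, in matched CD8 T cells 5 were higher and 13 lower, and in matched Treg cells none was higher and 6 were lower. Of the ATF4 response, 5 of 15, 7 of 15 and 6 of 13 genes were higher in cycling NK, CD8 T and Treg cells, and 1, 1 and 2 lower. The enzymes *Phgdh* (1.38 ± 0.09), *Mthfd2* of mitochondrial one-carbon metabolism (1.18 ± 0.09) and *Psat1* (1.52 ± 0.13) were higher in cycling CD8 T cells, also in matched ones (0.58, 0.82 and 0.76).

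*Slc25a13* was higher in cycling NK (1.51 ± 0.27), CD8 T (1.12 ± 0.19) and Treg cells (1.36 ± 0.28), and the lysosomal transporter *Slc36a1* was lower in CD8 T cells (-1.16 ± 0.27). Of glutamine use, 4 of 10 genes were higher in each cell type, with *Ppat*, the first enzyme of purine synthesis, at 0.70 ± 0.14, 0.92 ± 0.10 and 1.26 ± 0.13. Of 14 immediate early genes 10 were lower in cycling NK, 8 in cycling CD8 T and 12 in cycling Treg cells, with none higher. In matched cells 3 were higher and none lower in NK cells, and none was higher in CD8 T and Treg cells, where 3 and 2 were lower. They summed to 1706 to 1970 CPM in cycling and 2259 to 3885 CPM in other NK cells. Their part in the differences of the 6 genes was not tested.

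The last question was whether levels differed with time in the tumor. With 1 KR+ library there is no test, and the KR+ value was set against each KG+ library, with exact 95% Poisson intervals that cover counting error only. The medians of total UMIs of NK cells were 6132 and 8184 in KG+ 1 and 2 and 17234 in KR+. Those of CD8 T cells were 8955, 10517 and 14191, and those of Treg cells 9578, 10098 and 7139. Color and UMIs per cell thus moved together, upward in KR+ NK and CD8 T cells and downward in KR+ Treg cells. *Slc38a2* was the gene that was lower in KR+ cells past 1.5-fold against both KG+ libraries in NK and in CD8 T cells, the only member in each, where 23.3% and 13.5% of genes were past that fold.

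In NK cells the *Slc38a2* ratio of KR+ to KG+ was -1.004 (-1.04 to -0.97) and -0.82 (-0.86 to -0.79) on the log2 scale against KG+ 1 and 2, which themselves differed by -0.18. In CD8 T cells it was -0.74 and -0.68, and in Itga1+ NK cells -0.72 and -0.69, there too the only member past the fold (12% of genes). It was -0.43 and -0.41 in Itgam+ NK cells, where no member and 17.3% of genes were past the fold, and 0.06 and 0.03 in Treg cells. Over all cells, the KR+ level was lower in NK and CD8 T populations and near KG+ levels in Treg cells, a contrast not tested. Within NK cells of 10000 to 20000 UMIs it was 286 CPM in KR+ against 410.0 and 395 CPM, and in CD8 T cells of that size 216 CPM against 363 and 350.3 CPM, but in NK cells under 5000 UMIs it was 641 CPM in KR+ against 596 and 581 CPM. At 10000 to 20000 UMIs the ratio stayed past 1.5-fold in CD8 T cells (1.68 and 1.62) and not in NK cells (1.43 and 1.38), and at 5000 to 10000 UMIs it was past it in neither (1.37 and 1.36 in CD8 T cells, 1.27 and 1.26 in NK cells). In Itga1+ NK cells it was not past 1.5-fold in either band. In Treg cells of 10000 to 20000 UMIs *Slc38a2* was at 243 CPM in KR+ against 299 and 257 CPM. The log2 ratios there were -0.30 and -0.08, and in Treg cells of 5000 to 10000 UMIs they were 0.05 and -0.21.

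*Myc* was lower in KR+ than in both KG+ libraries in NK cells (-0.87 and -0.47), CD8 T cells (-0.85 and -0.55) and Treg cells (-1.92, -2.36 to -1.51, and -1.12, -1.56 to -0.72). With cycling cells kept, the Treg cells alone were past 1.5-fold. Without cycling cells *Myc* was past it in CD8 T cells too (-0.74 and -0.65). In NK cells of 5000 to 10000 UMIs *Myc* was not below both KG+ libraries (-0.16 and 0.18). In NK cells of 10000 to 20000 UMIs it was below both (-0.50 and -0.49). In CD8 T cells it was below both at 5000 to 10000 UMIs (-0.61 and -0.33) and at 10000 to 20000 UMIs (-0.74 and -0.47). The Treg values over all cells rested on 171, 191 and 65 UMIs, and KG+ 1 and 2 differed from each other by -0.80. In Treg cells of 5000 to 10000 UMIs *Myc* was at -1.14 and -1.31, on 17, 35 and 16 UMIs. At 10000 to 20000 UMIs it was at -2.92 and -1.42, on 80, 50 and 13 UMIs, and KG+ 1 and 2 there differed by -1.51. Both bands were past 1.5-fold. *Slc7a5* was also past the fold in Treg cells (-0.60 and -0.67), but not without cycling cells (-0.35 and -0.43), so 2 of 6 members were past it, where 6.27% of genes were. In NK cells *Slc7a5* was higher in KR+ (0.61 and 0.26), and *Slc3a2* was lower in NK cells (-0.75 and -0.45) and higher in Treg cells (0.26 and 0.37). In NK cells of 10000 to 20000 UMIs *Slc7a5* turned to -0.31 and -0.38, and *Slc3a2* was at -0.13 and -0.11. In NK cells of 5000 to 10000 UMIs *Slc7a5* was still higher in KR+ (0.54 and 0.25), and *Slc3a2* was at -0.17 and -0.03. Within Itga1+ NK cells the *Myc* ratios were -0.13 (-0.49 to 0.27) and -0.30 (-0.57 to -0.02), and the share of Itga1+ among NK cells was 12.1%, 18.3% and 48.1% in KG+ 1, KG+ 2 and KR+. In NK cells *Slc1a5* was at 0.26 and 0.16 and *Slc7a1* at -0.33 and -0.38.

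**Figure D4:**
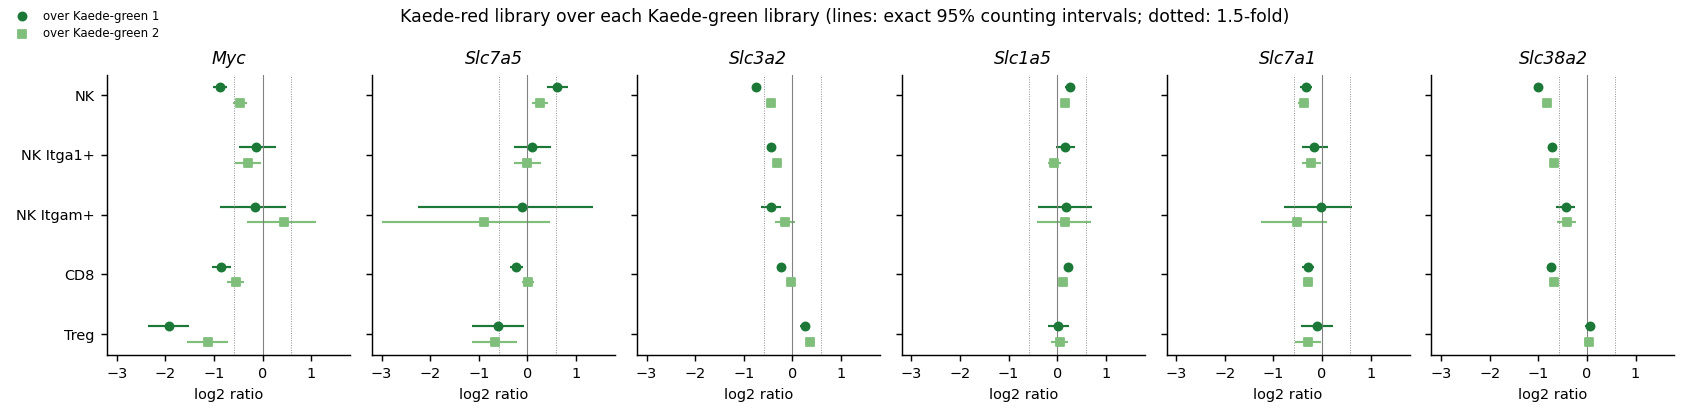
Log2 ratio of the KR+ library to KG+ 1 and to KG+ 2 (x axis) for the 6 genes in 5 populations, with exact 95% counting intervals and dotted lines at 1.5-fold. *Slc38a2* lies below the line against both KG+ libraries in NK, Itga1+ NK and CD8 T cells and near 0 in Treg cells, and *Myc* is lowest in Treg cells. Cells of all UMI totals are included.

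The genes whose levels ran most like each member were sought over 27 sums, of 9 disjoint populations in 3 libraries, among 5077 genes of at least 20 CPM on average. The points share libraries and depth, so the Pearson correlations only describe these sums. *Slc3a2* was closest to *Vps37b* (0.96), *Fosl2* (0.96) and *Nsd3* (0.95), and *Slc38a2* to *Pmepa1* (0.97), *Zfp36l2* (0.96) and *Satb1* (0.96). These 2 members also ran with each other (0.83). *Myc* was closest to *Fam49b* (0.78), *Cdk5rap3* (0.76) and *Nfkbie* (0.76), and *Slc7a5* to *Hspbp1* (0.88), *Tomm20* (0.84) and *Ptpn6* (0.81). *Slc7a5* and its partner *Slc3a2* were at -0.30, and *Myc* and *Slc7a5* at -0.47. *Slc1a5* was closest to *Myo10* (0.87), *Fam162a* (0.85) and *Pgk1* (0.84), and *Slc7a1* to *Tfam* (0.86), *Hnrnph1* (0.82) and *Me2* (0.82).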

How the data were processed

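Droplet-based scRNA-seq was made from sorted tumor lymphocytes in 3 libraries (2 KG+ and 1 KR+). The authors deposited raw UMI counts, for which Cell Ranger (6.1.2 in the processing notes, 6.0.1 in the file headers) and mm10 had been used. A cell was retained if it had 1000 to 6000 detected genes and a mitochondrial share below 7.5%. Scrublet called at most 1 doublet per library and so had not worked; cells in its top 5% of scores were left out as an alternative. UMIs were summed per library and gated population and tested with edgeR 4.0.16 (quasi-likelihood, TMM, filterByExpr, library as block, Benjamini-Hochberg threshold 0.05), and DESeq2 1.42.0 was an alternative. Interaction terms used 12 sums, other tests 6. CPM are counts over all UMIs of a sum. In depth-matched tests, as many cells of each population were drawn from bins of total UMIs. Color has 1 KR+ library and was described only. Intervals cover counting error. GENCODE vM21 gave coordinates. The 6 genes and the lists (other amino acid transporters, Myc network, Myc targets, ATF4 response, mTORC1 sensing, glutamine use, immediate early genes and cell type markers) were chosen with earlier results of these data known, and up to 4 genes with the lowest p per list and comparison were to be named, with genes behind counts of 5 or fewer, and the 3 genes most correlated with each member. On simulated counts the share of false calls was above the adjusted threshold in both comparisons tried.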

Additional observations from a re-analysis of the deposited data

Results flagged for a closer look

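The KR+ to KG+ ratios of *Slc7a5* and *Slc3a2* went opposite ways in NK and Treg cells, in the comparison with each KG+ library. For *Slc7a5* the mean log2 ratio in NK cells exceeded that in Treg cells by 1.07, with 0.61 and 0.26 in NK cells against -0.60 and -0.67 in Treg cells. For *Slc3a2* the NK cells lay below the Treg cells by a difference of -0.92, with -0.75 and -0.45 in NK cells against 0.26 and 0.37 in Treg cells. At 10000 to 20000 UMIs the opposite directions were not seen for *Slc7a5*, at -0.31 and -0.38 in NK and -0.19 and -0.16 in Treg cells, and *Slc3a2* was at -0.13 and -0.11 in NK and -0.04 and 0.29 in Treg cells. At 5000 to 10000 UMIs the directions stayed opposite. *Slc7a5* was there at 0.54 and 0.25 in NK and -0.26 and -0.12 in Treg cells, the latter on 9, 15 and 16 UMIs. *Slc3a2* was at -0.17 and -0.03 in NK and 0.18 and 0.08 in Treg cells. Each ratio uses the same KR+ library, and the difference between the cell types was not tested. Median UMIs per cell were higher in KR+ than in both KG+ libraries in NK cells and lower in Treg cells. Treg cells had 62, 126 and 59 *Slc7a5* UMIs in KG+ 1, KG+ 2 and KR+.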

How the results depend on the processing

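Of 810 values of single genes and settings 634 kept their direction and side of the threshold, 96 lost the threshold, 57 gained it and 23 reversed, of which 5 had been called. The cause was not tested for any of these. The bands of total UMIs and the matched cells without cycling cells were chosen after seeing the data, and bands under 20 cells per sum were not run. No paired analysis between colors was possible, because the labels number only the KG+ libraries as replicates. They pair no KG+ library with the KR+ library. The library block is part of every test between populations.

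Members called went from 5 to 3 for Itga1+ against Itgam+ NK cells with DESeq2, to 0 in matched cells with or without cycling cells and to 1 at 5000 to 10000 UMIs. For Crtam+ NK cells they went from 4 to 0 without the block, 1 in matched cells, 0 in matched cells without cycling cells, 0 at 5000 to 10000 and 1 at 10000 to 20000 UMIs, and from 0 to 4 with 1 library left out. For Havcr2+ CD8 T cells they went from 3 to 0 without the block. In cycling NK cells they went from 3 to 1 without the block and 0 in matched cells, and from 0 to 4 with 1 library left out. In cycling CD8 T cells they went from 4 to 2 without the block, 1 in matched cells and 0 at 10000 to 20000 UMIs. In cycling Treg cells they went from 4 to 2 with DESeq2, 2 without the block and 0 in matched cells. Between NK and CD8 T cells they went from 3 to 1 without the block, 5 at 5000 to 10000 UMIs and 1 to 5 with 1 library left out, and between Treg and CD8 T cells from 3 to between 1 and 4 with 1 library left out. Between Treg and NK cells they went from 1 to 3 with no filter, 2 with DESeq2, 3 without the block, 2 with all barcodes, 4 in matched cells, 2 with doubled gates, 5 in matched cells without cycling cells, 5 at 5000 to 10000 and 3 at 10000 to 20000 UMIs, and 0 to 3 with 1 library left out.

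Members past 1.5-fold between colors went from 2 to 1 in Treg cells with all barcodes, without cycling cells and in both bands, from 1 to 2 without cycling cells and 0 at 5000 to 10000 UMIs in CD8 T cells, and from 1 to 0 in both bands in NK and Itga1+ NK cells. The called differences that reversed were *Slc3a2* in Crtam+ cells at 5000 to 10000 UMIs (0.063), and in matched cycling cells *Slc38a2* in NK (0.15), CD8 T (0.031) and Treg cells (0.026) and *Myc* in Treg cells (-0.16). Those not called in either setting were, in matched cycling cells, *Myc* in NK (0.41) and CD8 T cells (-0.43), *Slc1a5* in CD8 T cells (-0.064) and *Slc7a5* in Treg cells (-0.61), and in cycling CD8 T cells *Myc* with doubled gates (-0.16) and, at 10000 to 20000 UMIs, *Myc* (-0.27) and *Slc1a5* (-0.078). With 1 library left out *Myc* ran there from -0.061 (without KG+ 1) to 0.37 and *Slc1a5* from -0.023 (without KG+ 1) to 0.099. The others were *Slc7a5* in matched Crtam+ cells without cycling cells (-0.060), *Slc7a5* (-0.20) and *Slc7a1* (0.082) in Havcr2+ cells at 5000 to 10000 UMIs, *Slc1a5* between NK and CD8 T cells (0.0043) and *Slc7a1* between Treg and CD8 T cells (0.18) at 10000 to 20000 UMIs, *Slc1a5* between Treg and NK cells at 5000 to 10000 UMIs (0.073), and in the difference of cycling differences between Treg and CD8 T cells *Slc7a5* with RLE factors (0.0032) and no filter (0.094) and *Slc7a1* with no filter (0.029).

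Genes called went from 3398 to 2042 with DESeq2, 1660 without KG+ 2, 2165 with doubled gates, 444 in matched cells and 328 at 5000 to 10000 UMIs for Itga1+ against Itgam+ cells. For Crtam+ cells 1351 became 2094 with no filter, 1 without the block, 456, 238 and 2274 without KG+ 1, KG+ 2 and KR+, 64 in matched cells, 47 in those without cycling cells, and 100 and 76 in the bands. For Havcr2+ cells 3375 became 2051 with DESeq2, 44 without the block, 2144 without KG+ 2, 2227 and 1850 in matched cells with and without cycling cells, and 1000 and 1623 in the bands. For cycling NK cells 2870 became 1604 without the block, 1347 without KG+ 2 and 1332 matched, for CD8 T cells 4901 became 3132 without KG+ 2, 2415 matched and 1906 at 10000 to 20000 UMIs, and for Treg cells 4121 became 2304 with DESeq2 and 955 matched. Between NK and CD8 T cells 3799 became 1667 without the block and 2318 without KG+ 2, between Treg and CD8 T cells 2927 became 1623 and 4687 without KG+ 1 and KR+, and between Treg and NK cells 2865 became 5453 without KR+ and 4952 and 4598 in matched cells with and without cycling cells. The difference of cycling differences between NK and CD8 T cells went from 0 to 6 with DESeq2 and 53 with no filter, that between Treg and CD8 T cells from 28 to 201 with DESeq2, 446 with no filter and 0 without the block, and the *Crtam* difference from 1 to 13 with no filter and 0 without the block.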

Other observations

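Itga1- Itgam- NK cells had *Myc* levels of 35.6, 26.0 and 21.6 CPM in KG+ 1, KG+ 2 and KR+, and the 120 NK cells with both integrins had 15.5, 38.8 and 13.2 CPM. These populations entered no comparison.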
